A study of Mus musculus with 40 samples.

Results

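The globin genes of mouse fetal liver are described here across 40 libraries: the alpha-type genes Hba-a1, Hba-a2 and Hba-x and the beta-type genes Hbb-bs, Hbb-bt, Hbb-bh1 and Hbb-y. They were chosen by gene symbol, and all 7 were found among the 20593 genes of the deposited table. Each library came from the polyadenylated liver RNA of 1 C57BL/6 fetus at gestational day 18.5. The dams had eaten their diet for 13 weeks before breeding and through pregnancy, and the high-fat diet served as a model of gestational diabetes, per the series' design text. The 4 maternal diets were WDF (45% of kcal as fat, 10 mg/kg folic acid), WD (45% fat, 2 mg/kg), CDF (10% fat, 10 mg/kg) and CD (10% fat, 2 mg/kg), each with 5 female and 5 male fetuses. The labels do not say which fetuses shared a dam, so p-values measure only the spread between these samples.

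Red cells carry oxygen on hemoglobin, a tetramer of paired alpha-type and beta-type globin chains around heme. In the mouse, the first red cells arise in the yolk sac and use Hba-x (zeta), Hbb-bh1 (beta-h1) and Hbb-y (epsilon-y), together with the adult alpha genes. Red cells made later in the fetal liver use the adult genes Hba-a1, Hba-a2, Hbb-bs and Hbb-bt, while regulators such as Bcl11a keep the embryonic beta-type genes low. The fetal liver is the main site of red cell formation before birth, so a bulk sample of it holds red cell precursors and blood as well as hepatocytes. Fewer cells of a type and less RNA per cell cannot be told apart in such samples.

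The 3 alpha-type genes lie on chromosome 11 of mm10 (GENCODE vM21), all on the plus strand: Hba-x at chr11:32276400-32278116, Hba-a1 at chr11:32283511-32284465 and Hba-a2 at chr11:32296489-32297298. The 4 beta-type genes lie on chromosome 7, all on the minus strand: Hbb-y at chr7:103851749-103853216, Hbb-bh1 at chr7:103841637-103843164, Hbb-bs at chr7:103826534-103828096 and Hbb-bt at chr7:103812524-103813996. In the direction of transcription, the embryonic genes therefore come before the adult ones in both clusters. The stretches of 120 bases before the RefSeq transcription start (build GRCm38.p6) are shown for the 6 genes with an entry, because adult and embryonic genes of a cluster can be set side by side in them. Each stretch overlaps the GENCODE span given above for its gene, since the annotations place the start differently. Capitals mark, on either strand, the run CACCC, the run CCAAT (which reads ATTGG on the other strand), the run TATAA and the run ATAAA. The last pair can overlap, as TATAAA.
Hba-a1 (chr11:32283552-32283671, plus strand): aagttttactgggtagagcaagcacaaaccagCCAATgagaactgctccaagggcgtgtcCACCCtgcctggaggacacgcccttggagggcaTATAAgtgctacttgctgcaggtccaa
Hba-a2 (chr11:32296372-32296491, plus strand): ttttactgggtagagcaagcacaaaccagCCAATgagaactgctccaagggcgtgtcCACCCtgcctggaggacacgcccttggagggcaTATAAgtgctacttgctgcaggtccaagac
Hba-x (chr11:32276480-32276599, plus strand): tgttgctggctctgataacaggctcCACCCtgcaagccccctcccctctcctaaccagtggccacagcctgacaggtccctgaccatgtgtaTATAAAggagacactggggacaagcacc
Hbb-bs (chr7:103827929-103828048, minus strand): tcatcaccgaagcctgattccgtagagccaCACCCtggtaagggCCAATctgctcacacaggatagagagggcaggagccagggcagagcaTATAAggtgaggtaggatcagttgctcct
Hbb-bt (chr7:103813924-103814043, minus strand): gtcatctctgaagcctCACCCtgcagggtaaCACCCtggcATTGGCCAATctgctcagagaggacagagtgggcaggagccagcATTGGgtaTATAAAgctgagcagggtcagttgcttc
Hbb-y (chr7:103853208-103853327, minus strand): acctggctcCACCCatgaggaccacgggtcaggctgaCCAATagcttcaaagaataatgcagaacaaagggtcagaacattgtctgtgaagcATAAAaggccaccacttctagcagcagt
All 6 stretches held at least 1 CACCC, the core of the box that the red cell regulator Klf1 binds in the adult beta-type promoter. Hbb-bt had 2 CACCC and 3 CCAAT matches. Hba-x had no CCAAT match, and Hbb-y had ATAAA but not TATAA. The stretches of Hba-a1 and Hba-a2 are nearly the same: within 300 bases around the start the entries share a run of 297 bases. Of 32851 RefSeq promoters searched over the same 120 bases and on both strands, 31.7% held CACCC, 21.3% held CCAAT, 11.8% held TATAA and 20.2% held ATAAA. A promoter with all of the first, the second and either of the others was found in 1.27%. A match is a run of letters, not a measured binding site.

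The adult pairs are alike in their transcripts too, which bears on what each value can show. Of the 43-base windows of the Hba-a1 transcript, the length of 1 read, 68.9% also occur in Hba-a2, and 88.5% of the Hba-a2 windows occur in Hba-a1. Hbb-bs shares 66.2% of its windows with Hbb-bt, and Hbb-bt shares 58.7% with Hbb-bs. Hba-x, Hbb-bh1 and Hbb-y share no window with another of the 7 genes. The split within each adult pair is therefore uncertain. It enters the per-kb sums and the ratios made from them as well, since the genes of a pair differ in length, and how shared reads were counted is not stated in the labels. The embryonic values do not rest on it.

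Libraries differed in their sums and in marker genes. Their summed normalized read counts ran from 8965560 to 27817200 (median 16971200), and the summed hepatocyte markers from 2231200 to 3390360 in 38 libraries. In the other 2, CD females replicate 4 and CDF females replicate 5, albumin (Alb) was at 7708 and 5278, against a lowest value of 641907 in the 38. Those 2 libraries had the highest level of Sftpc, a lung surfactant protein, at 101239 and 67014. In the 38 its median was 4.05 and its highest value 30176, in CD females replicate 5. The defining liver markers of the 2 low-albumin libraries thus go against the liver label, and results are given with all 40 libraries and with these 2 left out. Summed lung markers were above 1000 in 8 libraries, these 2 included, and between 108 and 412 in the rest. CD females replicate 5 had the highest sum of the 38, 41588, and 15643 for summed heart markers. CDF females replicate 5 had 40357 for summed heart markers.

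The adult globin genes were among the most abundant messages of every library. Hba-a2 ranked between 1 and 4 among all genes and Hbb-bs between 1 and 6, with median ranks of 2 and 3. Hba-a1 and Hbb-bt both had a median rank of 7. The embryonic genes had median ranks of 10880 for Hba-x, 10969 for Hbb-y and 11794 for Hbb-bh1.

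Per kb of the longest coding transcript, the median level over 40 libraries was 1501580 for Hba-a2, 1161280 for Hbb-bs, 400485 for Hba-a1 and 391894 for Hbb-bt. The embryonic genes had medians of 102 for Hbb-y, 86.5 for Hba-x and 67.5 for Hbb-bh1, on the same per-kb scale. Between the lowest adult and the highest embryonic gene the order held in all 40 libraries, as it did for Hbb-bs over Hba-a1, and Hba-a2 exceeded Hbb-bs in 39 of 40. The other neighbours were less regular. Hba-a1 exceeded Hbb-bt in 29 of 40 libraries and Hbb-y exceeded Hba-x in 24 of 40, so the ranges of both pairs overlap widely. Hba-x exceeded Hbb-bh1 in 31 of 40.

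**Figure D1:**
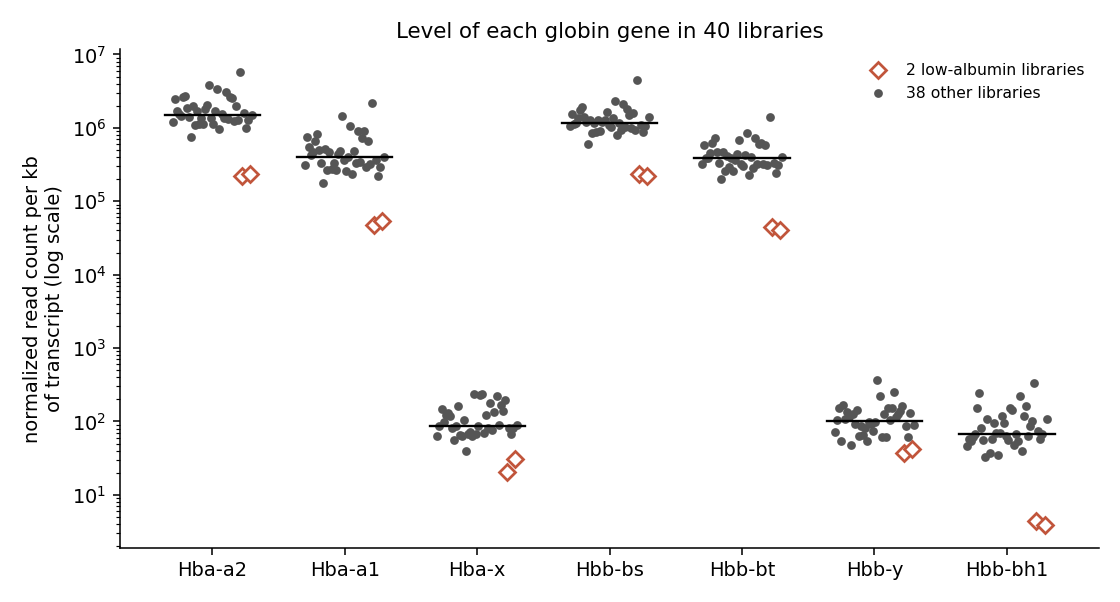
Level of each globin gene per kb of transcript (log scale) in 40 libraries. Open diamonds are the 2 low-albumin libraries, dots the other 38, and bars the median of all 40; the adult genes lie between 40228 and 5737770 and the embryonic genes between 3.86 and 370.

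Together the 7 genes took 13.6% ± 5.26 of a library (SD, n = 40), with a median of 12.9% and a range of 3.47 to 30.5%. In females, the shares were 10.1, 13.8, 22.9, 8.39 and 12.9% for WDF replicates 1 to 5 and 10.4, 20.9, 11.6, 18.5 and 18.7% for WD. They were 10.8, 15.9, 10.9, 30.5 and 3.73% for CDF females and 12.2, 9.06, 10.9, 3.47 and 14.3% for CD females. CDF females held the highest share of all 40 libraries, in replicate 4, and the second lowest, in replicate 5, while CD replicate 4 was lowest.
In males, the shares were 10.1, 17.9, 13.4, 12.3 and 13.2% for WDF replicates 1 to 5 and 19.2, 20.6, 15.5, 12.4 and 7.01% for WD. They were 14.5, 8.63, 13.4, 10.4 and 12.8% for CDF males and 9.55, 13.2, 15.4, 22.5 and 11.8% for CD males. All 8 groups overlapped with each other, and replicates of 1 group differed by up to several fold.

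**Figure D2:**
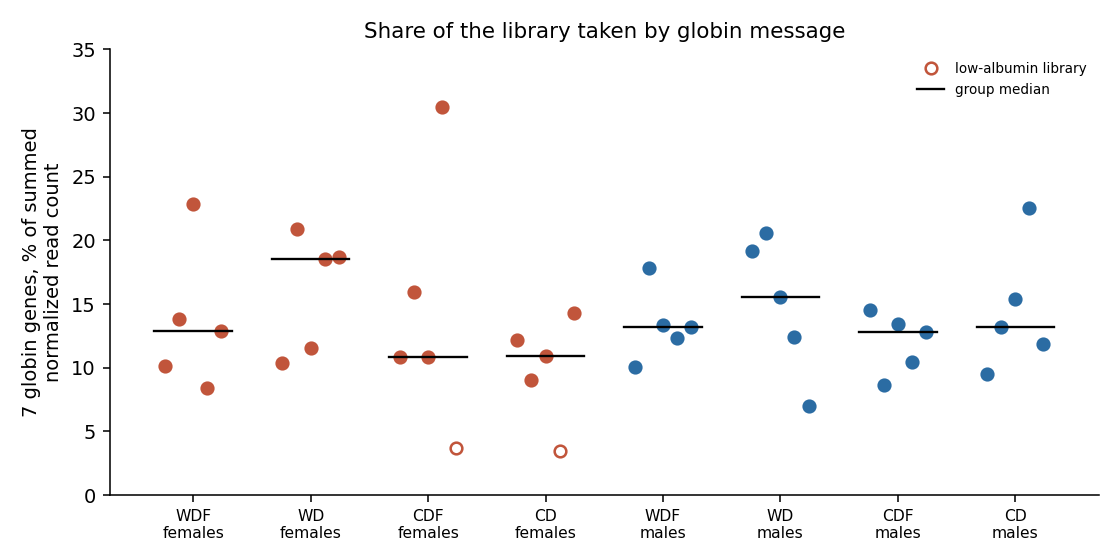
Share of the summed normalized read count taken by the 7 globin genes, in %, by maternal diet and sex, 5 libraries a group. Each circle is a library, open circles are the 2 low-albumin libraries and bars are group medians; CDF females run from 3.73 to 30.5%.

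Adult message far exceeded embryonic message in every library. The adult to embryonic beta ratio, Hbb-bs plus Hbb-bt over Hbb-bh1 plus Hbb-y per kb, had a median of 8911 and ran from 3402 to 14686. The alpha ratio, Hba-a1 plus Hba-a2 over Hba-x per kb, had a median of 20487 and ran from 9101 to 42666. Put the other way, embryonic message was 68.1 to 294 ppm of all beta-type message (median 112) and 23.4 to 110 ppm of all alpha-type message (median 48.8).

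The beta ratio had medians of 8616, 8904, 7504 and 8917 in WDF, WD, CDF and CD females, and of 11728, 9030, 8806 and 10377 in WDF, WD, CDF and CD males. The alpha ratio was 16151, 9101, 18653, 16993 and 16203 in WDF females replicates 1 to 5, against 20492, 22663, 21778, 25240 and 15227 in WD females. WD females replicate 5 fell within the WDF range and WDF females replicate 2 lay below every other library. In CDF and CD females the alpha ratio ran from 11534 to 40811 and from 9374 to 23892. In males it ran from 15327 to 36750 for WDF, 10870 to 30926 for WD, 13206 to 42666 for CDF and 20589 to 40745 for CD.

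**Figure D3:**
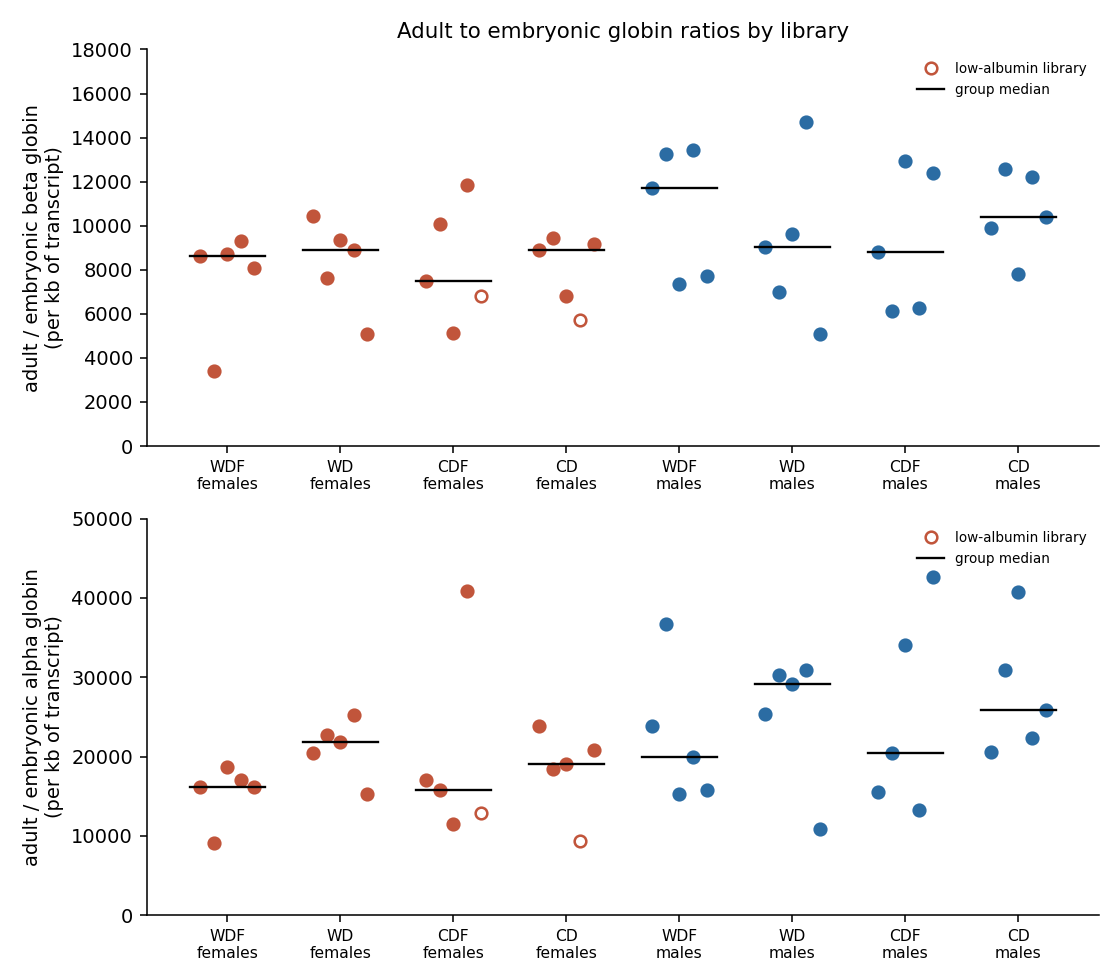
Adult to embryonic ratio of beta-type (top) and alpha-type (bottom) globin message, from levels per kb, by maternal diet and sex. Each circle is a library, open circles are the 2 low-albumin libraries and bars are group medians; WDF females replicate 2 is lowest in both, at 3402 and 9101.

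A few libraries stood apart in these measures. CDF females replicate 4 had the highest total, 8474780, and the highest Hba-a1, Hba-a2, Hbb-bs, Hbb-bt and Hbb-bh1. Hbb-bh1 was at 203 there, against a median of 41.9 in the 38 libraries, so that Hbb-y made up only 32.7% of its embryonic beta message, the lowest share of all. Its Alb was 658016, its Sftpc 24797 and its summed library the largest of the 40. Alas2, which makes the first enzyme of red cell heme synthesis, was at 30708 in it, against a median of 13647, while Klf1, a red cell regulator, was at 1785, against 1802. The part of its summed value and of its lung markers in these levels was not tested.

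CD males replicate 4 was second in total, 4688210, and had the highest Hba-x of all 40, 192, while the other 4 CD males lay between 49.9 and 57.6. It also had the highest adult alpha to beta ratio, 2.30 against a median of 1.25 in the 38, and the highest share of Hbb-bt in adult beta, 29.8%. Its Alb, 641907, was the lowest of the 38, and its Alas2, 34706, was the second highest. WDF females replicate 3 had the highest Alas2, 37435, and the second highest share of globin message, 22.9%.

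WDF females replicate 2 had a total near the median, 2364540, but the lowest ratios, with Hbb-y at 234 and Hba-x at 184, against medians of 66.2 and 71.1 in the 38. The other WDF females had Hbb-y between 39.4 and 142. WD males replicate 5 had the lowest total of the 38, 1055750, with the second lowest ratios of the 38, 5073 for beta and 10870 for alpha, and Hbb-y made up 79.2% of its embryonic beta message. WD males replicate 4 had the lowest Hbb-y of the 38, 30.1, and the highest beta ratio, 14686.

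The 2 low-albumin libraries were low in all 7 genes, but not to the same degree. Their totals were 333284 in CD females replicate 4 and 334518 in CDF females replicate 5, against a median of 2223380 in the 38, a 6.67-fold and a 6.65-fold difference. Hbb-bh1 was at 2.37 and 2.72, against a median of 41.9, which is 17.7-fold and 15.4-fold lower. Hbb-y was at 26.6 and 23.3, against 66.2, or 2.48-fold and 2.84-fold lower, so that it made up 91.6 and 89.2% of embryonic beta message, more than in any of the 38.
Hba-x was 2.92-fold and 4.28-fold lower than its median in the 38. Among the adult genes, Hbb-bt was 9.78-fold and 8.80-fold lower and Hbb-bs 5.29-fold and 4.97-fold, which left Hbb-bt at 15.4 and 15.9% of adult beta message, below all of the 38. Klf1 was low in these libraries too, at 21.1 and 12.1, against a lowest value of 1295 in the 38. Alas2, at 1870 and 1897, was 7.30-fold and 7.19-fold below its median. The theta-type gene Hbq1b was at 12.5 and 5.32, 31.6-fold and 74.5-fold below its median of 396. Hbq1a, also of theta type, was at 4.13 and 4.36, 6.05-fold and 5.73-fold below its median of 25.0.

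The adult genes varied together. Over the 38 libraries, the Pearson correlation of log2 values between any pair of adult genes was 0.92 to 0.98, and reads that the genes of a pair share enter the values within a pair. Hbb-bh1 followed the adult genes with 0.75 to 0.83, and Hbb-y followed them with 0.39 to 0.46. The highest correlation between embryonic genes, 0.73, was that of Hba-x with Hbb-y. Genes of a library share its depth and scaling factor, so the values are descriptions.

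The make-up of the adult message varied with the total. Over 38 libraries, the share of Hba-a1 in adult alpha message (18.2 to 27.4%) was correlated with the log2 total, with Pearson's r = 0.76 and Spearman's rho = 0.72 (permutation test, two-sided, p = 1e-05 for both, the smallest 100000 permutations can give). The share of Hbb-bt in adult beta message (21.8 to 29.8%) had r = 0.58 (permutation p = 0.00017) and rho = 0.69 (permutation p = 1e-05). The adult alpha to beta ratio had r = 0.57 (permutation p = 0.0005) and rho = 0.62 (permutation p = 4e-05). Without CD males replicate 4 and CDF females replicate 4, the farthest from the median total, r was 0.65, 0.67 and 0.57 in the same order. Over deviations from group means, r was 0.76, 0.57 and 0.59. These were 3 of 9 relations computed, and their Benjamini-Hochberg adjusted p were 4.5e-05, 0.00051 and 0.001125 for r. Since most windows of a pair are shared, how the authors' counting split those reads enters both shares, and this was not tested. The genes of these shares and of the alpha to beta ratio also make up the total. Shuffling breaks that link, so the permutation p does not test whether the make-up varies with the total apart from it.

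The adult to embryonic alpha ratio was less closely related to the total, with r = 0.41 (permutation p = 0.01176, adjusted 0.01764) and rho = 0.33 (permutation p = 0.03935, adjusted 0.059), and r was 0.32 without those 2 libraries. For the beta ratio, r was 0.20 (permutation p = 0.23805) and rho 0.12 (permutation p = 0.48348). The genes of both ratios enter the total as well, so the same limit holds for these permutation p. Alb was lower where globin was higher, with r = -0.79 and rho = -0.77 (permutation p = 1e-05 for both), and r = -0.81 over deviations from group means, while the mean of 10 hepatocyte markers had r = -0.21 (permutation p = 0.1986) and rho = -0.21 (permutation p = 0.21275). A mean was also taken over 22 genes of globin chaperoning, heme synthesis and the red cell membrane. It had r = 0.48 (permutation p = 0.00203) and rho = 0.62 (permutation p = 8e-05), and r = 0.68 without the 2 libraries. For the mean of 16 regulators of globin switching and red cell formation, r was -0.09 (permutation p = 0.58056) and rho 0.21 (permutation p = 0.1955).

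**Figure D4:**
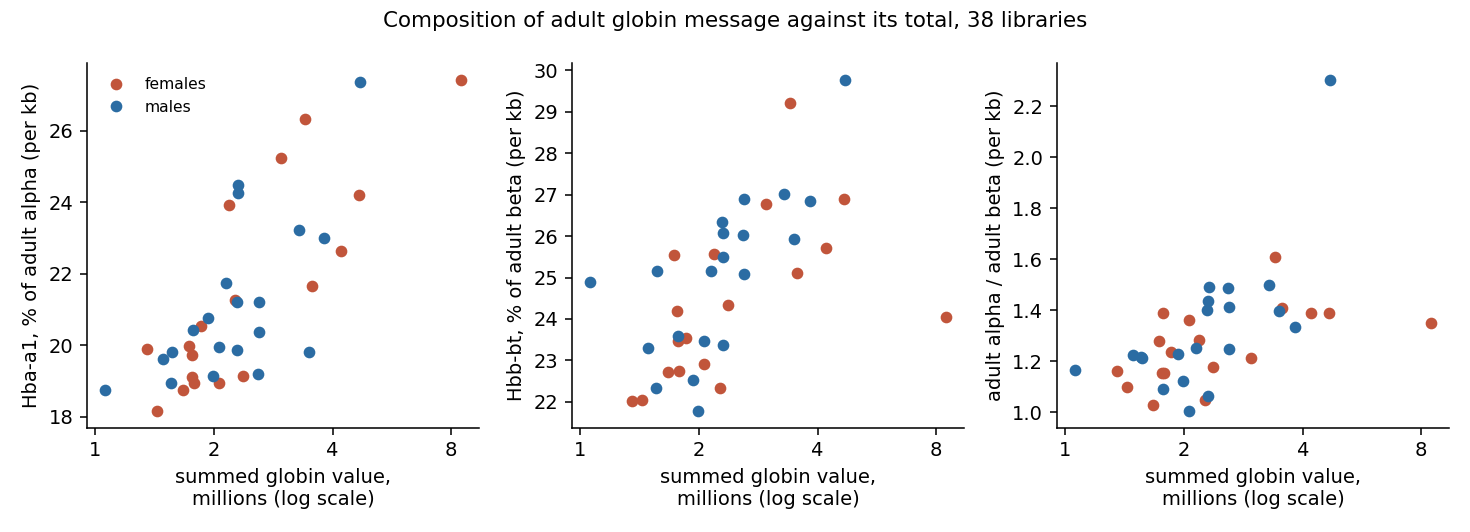
Share of Hba-a1 in adult alpha message, share of Hbb-bt in adult beta message and adult alpha to beta ratio, all per kb, against the summed globin value (log scale) in 38 libraries. Each dot is a library; the library farthest right is CDF females replicate 4 and the one at an alpha to beta ratio of 2.30 is CD males replicate 4.

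Apart from the 7 members, the 5 genes whose levels ranked most like the summed adult globins over 38 libraries were Arf5 (Spearman's rho 0.957), Ptp4a3 (0.956), Tmem134 (0.950), Prdx2 (0.950) and Birc5 (0.949), out of 15591 genes. Prdx2, a peroxiredoxin abundant in red cells, was at 77594 in CDF females replicate 4, against a median of 16237. For the summed embryonic globins they were Eef1g (0.828), Raly (0.824), Iscu (0.822), 0610010K14Rik (0.814) and Polr2e (0.813).

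No globin gene passed the threshold in any diet or sex comparison. In limma with Benjamini-Hochberg adjustment over 15598 genes, 0 of 7 members were called in each of the 8 comparisons between 2 diets, where 0% of all genes were called. The count was also 0 of 7 for 45% against 10% fat pooled over 4 strata (0.0192% of genes called), for 10 against 2 mg/kg folic acid pooled (0%) and for females against males (0.0577%). Before adjustment, p was under 0.05 for 1 of 7 members in WD against CD females and for 1 of 7 in the pooled fat comparison, and for 0 of 7 in the other 9. Over all genes that share was 3.15% in WD against CD males, 17.4% in WD against CD females, 3.57% in WDF against CDF males, 7.65% in WDF against CDF females, 4.58% in WDF against WD males, 0.686% in WDF against WD females, 1.63% in CDF against CD males and 2.03% in CDF against CD females. It was 11.3% for pooled fat, 0.904% for pooled folic acid and 5.86% for females against males. No member had groups that did not overlap in any of the 8 comparisons between 2 diets, while the share of genes that did, in either direction, was 1.49% in WD against CD males, 2.16% in WD against CD females, 2.06% in WDF against CDF males, 0.423% in WDF against CDF females, 2.49% in WDF against WD males, 0.301% in WDF against WD females, 0.75% in CDF against CD males and 0.109% in CDF against CD females.

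For the effect of 45% fat at 2 mg/kg folic acid in females, the widest difference was that of Hba-a1. It was at 232026, 631724, 240523, 514417 and 627944 in WD females, against 258385, 155666, 206408, 37498 and 279937 in CD females. WD replicates 2, 4 and 5 lay above every CD female, and replicates 1 and 3 lay within the CD range. The log2 difference was 1.41 ± 0.66 (SE; limma adjusted p = 0.286), and 0.90 (limma adjusted p = 0.662) without the low-albumin library, which is CD replicate 4. There, 6.57% of genes had p under 0.05 before adjustment. All 7 members were higher on average, by 0.77 to 1.41, with a median of 1.15, against a median of -0.0040 and 49.7% of genes higher over all genes tested; without the 2 libraries the members' range was 0.37 to 0.90. In the same comparison the 10 hepatocyte markers had a median log2 difference of 1.47 with 40 libraries and 0.09 with 38, and the 10 lung markers -3.14 and -1.30, and their part in the globin values was not tested.
The total was 1763520, 4202020, 1852290, 3546220 and 3397180 in WD females, against 2057590, 1429770, 1777890, 333284 and 2258210 in CD females, where replicate 4 was far below the rest. That log2 difference was 1.08 ± 0.57 (exact permutation test, two-sided, p = 0.0714, adjusted over 24 tests 0.857), and 0.58 ± 0.30 without CD replicate 4 (exact p = 0.119). In males the same comparison gave -0.04 ± 0.43 (exact p = 0.937), and the members' differences ran from -0.19 for Hba-a1 to 0.34 for Hbb-y.

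At 10 mg/kg folic acid, WDF against CDF females had members' log2 differences from 0.19 for Hbb-bs to 0.47 for Hbb-y. Without CDF replicate 5, 6 of the 7 turned, and they ran from -0.54 for Hba-a1 to 0.11 for Hbb-y. The 10 hepatocyte markers had a median of 1.58 with 40 libraries and 0.10 with 38 in this comparison of females, and the 10 lung markers -4.18 and -2.52, and their part was not tested. WDF against CDF males ran from -0.26 for Hbb-bh1 to 0.42 for Hba-a1. The total differed by 0.22 ± 0.81 in females (exact permutation p = 0.817) and by 0.24 ± 0.21 in males (exact permutation p = 0.278).

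For 10 against 2 mg/kg folic acid, the members ran from -0.49 for Hba-a1 to 0.15 for Hbb-y in WDF against WD females and from -0.65 for Hbb-bh1 to 0.14 for Hba-x in WDF against WD males. They ran from 0.45 for Hbb-y to 0.72 for Hba-a1 in CDF against CD females (0.56 to 0.95 with 38 libraries) and from -0.48 for Hba-a1 to 0.14 for Hbb-y in CDF against CD males. The total in CDF against CD females differed by 0.54 ± 0.91 (exact permutation p = 0.556), and by 7.0e-05 without CDF females replicate 4, the library with the highest total and an Sftpc of 24797. It was 0.042 without the low-albumin CD females replicate 4 and 1.17 without the low-albumin CDF females replicate 5. In the authors' deposited table for CDF against CD females, Hba-x had a log2 fold change of 0.57 with p = 0.0028 and adjusted p = 0.778 from their own model, and none of the 7 genes was called in any of their 4 tables. Hba-a1 and Hbb-bt were also under 0.05 before adjustment in the authors' model for CDF against CD females. All 7 fold changes were positive there, but apart from Hba-x they ran only from 0.0071 for Hbb-bh1 to 0.0144 for Hbb-y. The limma differences above are far wider, so the authors' fold changes, the 0.57 included, cannot be compared with them. The reason was not tested. The mean values in that table match 8 of the 10 control-diet female libraries, those without the low-albumin ones (SD of the log2 ratio over genes 0.0411, against 0.408 with all 10). Over all genes listed, the authors called 203 of 18355 in WDF against WD males and 0 of 18479 in WDF against WD females. They called 7 of 18203 in CDF against CD males and 4 of 18799 in CDF against CD females. The limma fit called 0 of 15598 genes in WDF against WD males, and the reason for the difference was not tested.
The smallest p among the 24 tests of the total and the ratios was that of the alpha ratio in WDF against WD females, given above by library. Its log2 difference was -0.47 ± 0.22 (exact permutation p = 0.0476, adjusted 0.857), and 5 against 5 libraries can give no p below 0.00794.

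Pooled over the 4 strata, Hbb-y was at a median of 75.3 (30.1 to 234) in 20 libraries on 45% fat, against 55.7 (23.3 to 102) in 20 on 10% fat. The log2 difference was 0.45 ± 0.21 (SE; limma adjusted p = 0.435), and 0.31 ± 0.19 in 38 libraries (limma adjusted p = 0.824). Most of the 10% fat range lay within the 45% fat range, which reached higher. The other members differed by 0.34 to 0.46 with 40 libraries and by -0.01 to 0.24 with 38. The total differed by 0.37 ± 0.28 (permutation test within strata, p = 0.183, adjusted over 9 tests 0.431), and by 0.09 ± 0.21 with 38 libraries (p = 0.654). For 10 against 2 mg/kg folic acid the members ran from -0.10 for Hbb-bh1 to 0.19 for Hbb-y, and the total differed by -0.03 ± 0.28 (permutation p = 0.913).

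Adult to embryonic ratios were lower in females than in males under all 4 diets, by a margin that did not pass adjustment. The alpha ratio was at a median of 17736 (9101 to 40811) in 20 females, against 24586 (10870 to 42666) in 20 males. Its log2 difference was -0.43 ± 0.17 (permutation test within diets, p = 0.0152, adjusted over 9 tests 0.137), and -0.34 ± 0.17 with 38 libraries (p = 0.0475, adjusted 0.413). By diet it was -0.50 for WDF, -0.19 for WD, -0.38 for CDF and -0.64 for CD, and -0.27 for CDF and -0.41 for CD without the low-albumin libraries. Leaving out CDF females replicate 4 made it -0.50 (permutation p adjusted 0.0247), and leaving out WD males replicate 5 made it -0.50 (permutation p adjusted 0.0243), so the call depended on single libraries.
The beta ratio differed by -0.29 ± 0.15 (permutation p = 0.0475, adjusted 0.214), and by -0.25 ± 0.15 with 38 libraries (p = 0.0958). With 38 libraries, Hbb-y was higher in females than in males by 0.42 ± 0.19 (limma adjusted p = 0.999) and Hba-x by 0.41 ± 0.20 (limma adjusted p = 0.999), both under 0.05 before adjustment, as were 3.1% of genes. The adult genes differed by 0.07 to 0.15 in the same fit. With all 40 libraries Hba-x and Hbb-y differed by 0.21 and 0.28, and the adult genes by -0.23 to -0.10. The 8 libraries with summed lung markers above 1000 are 6 females and 2 males, and their part in these ratios was not tested.

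**Figure D5:**
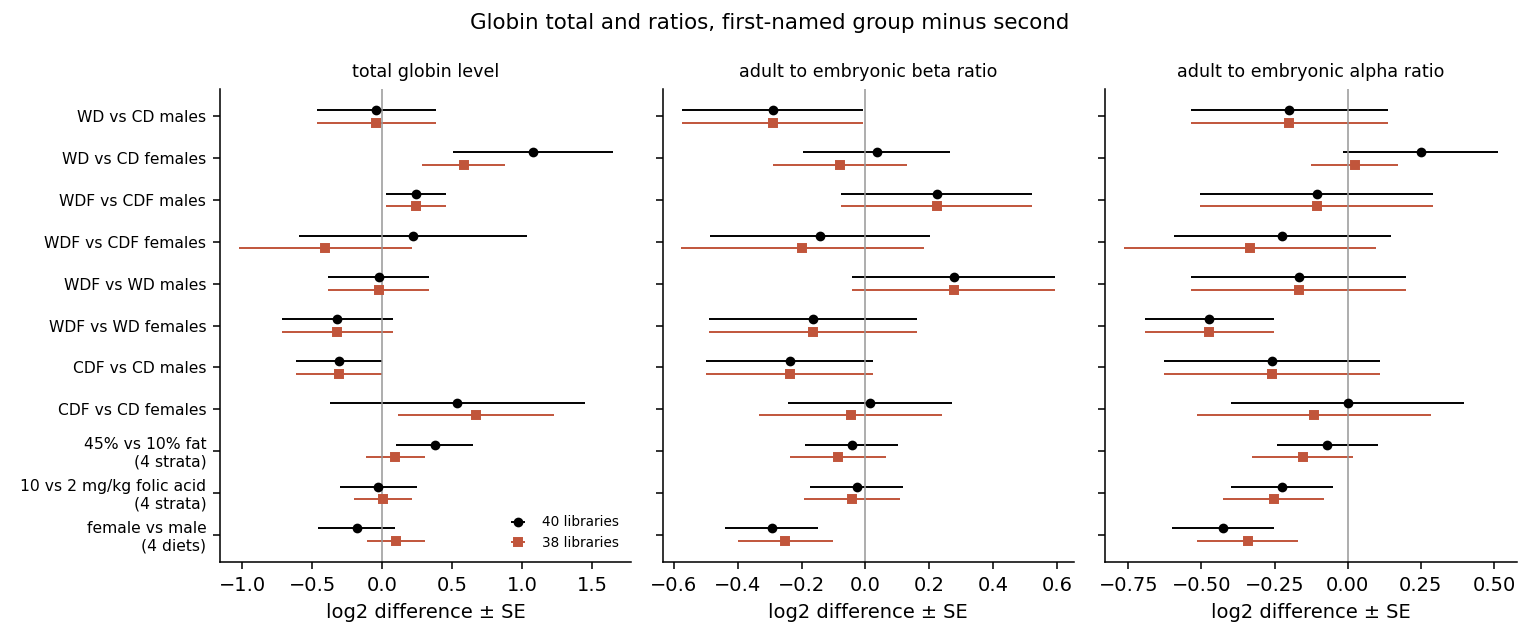
Log2 differences (first-named group minus second, ± SE) in the summed globin value and in the adult to embryonic beta and alpha ratios for 8 comparisons between 2 diets and 3 pooled ones, with 40 libraries (circles) and with the 38 without the low-albumin ones (squares). None passed the threshold after adjustment; the widest with 40 libraries is the total in WD against CD females, 1.08, which is 0.58 with 38.

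Whether the diet effects differed between sexes or between levels of the other diet component was tested for each member with interaction terms. None of 42 was called by limma (smallest adjusted p = 0.510), and the smallest unadjusted p, 0.0950, was that of Hba-a1 for the fat effect at 2 mg/kg in females minus males.

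Other genes of the red cell programme were not called either. These were 16 regulators (Klf1, Gata1, Bcl11a and others), 4 other globins, and 22 genes of globin chaperoning, heme synthesis and the red cell membrane. The last list is called heme and membrane genes below. None of the genes of these lists was called by limma in any of the 11 comparisons (smallest adjusted p = 0.286). In the pooled fat comparison, 12 of the 22 heme and membrane genes and 6 of the 16 regulators had p under 0.05 before adjustment, against the 11.3% of genes given above. All 22 were higher on 45% fat, by a median of 0.69 on the log2 scale, from 0.39 for Slc25a38 (a mitochondrial glycine carrier) to 0.98 for Kel (a red cell surface antigen). Over all genes tested the median was 0.0024 with 40 libraries and -0.00046 with 38. With 38 libraries, 10 of the 22 had p under 0.05, against 7.5% of genes, and their median was 0.21, from 0.13 for Slc25a38 to 0.39 for Sptb (beta spectrin), with a smallest adjusted p of 0.285. The 10 hepatocyte markers had medians of 0.75 with 40 libraries and 0.0035 with 38, and the 10 lung markers -1.86 and -1.001, and their part was not tested. The 16 regulators ran from -0.07 for Chd4, a chromatin remodeler, to 0.87 for Klf1 with 40 libraries, with a median of 0.43, and had a median of 0.18 with 38. The theta-type gene Hbq1b differed by 0.78 with 40 libraries and by 0.25 with 38. No difference is given for Ngb (neuroglobin), since its values of at least 10 all lay in libraries with summed lung markers above 1000.
In females against males, all 22 heme and membrane genes were lower with 40 libraries, by a median of -0.48, and 13 of 22 were lower with 38, by a median of -0.02. The median over all genes tested was -0.0032 with 40 libraries and 0.0050 with 38. Over the same libraries the 10 hepatocyte markers had a median of -0.74 with 40 and 0.04 with 38, and the 10 lung markers 1.73 and 0.87.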

How the data were processed

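Liver RNA of 40 mouse fetuses was read as 43-base paired ends from directional polyadenylated libraries, per the labels' protocols. The submitters' processing notes name Trimmomatic 0.39, STAR 2.7.3a, Salmon 1.3.0, DESeq2 1.24 and build mm10, with no role or order, and how reads were counted is not stated there. The table deposited by the authors holds a signal, read counts divided by size factors, since median-ratio factors recomputed from it were identical in all 40 libraries (1.01). Beside it, 4 result files by the authors give a log2 fold change and a p-value per gene for folic acid within a diet and sex. Read depth was not recovered, so precision rests on the spread between libraries. Groups came from sample titles; 39 columns matched a title and the last was assigned by elimination. No 2 libraries were identical (highest Pearson correlation of log2 values 0.989).

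Values were taken as log2(value + 1), a scale that understates changes of low genes, for genes with at least 10 in at least 5 libraries, in limma 3.58.1 under R 4.3.3 (trend, robust, 1 mean for each of 8 groups). All 7 members passed that filter. Adjustment was Benjamini-Hochberg with a threshold of 0.05. Totals and ratios, the latter from levels per kb of the longest coding transcript (GENCODE vM21), were tested by exact permutation (252 splits) or 100000 permutations within strata, adjusted over 24 and 9 tests. Scripts were tested on simulated data. Alternatives were leaving out the 2 low-albumin libraries or each replicate, trimmed-mean scaling, the share of the library, a pseudocount of 5, no filter, compared groups only and the replicate number as a block. Members, lists and rules were chosen with earlier results of these data known. The rule for naming gave a fold and test to members with limma p under 0.05 before adjustment and a range to the others, the lowest and highest member of the lists described, and the 5 genes most like the members. Neutrophil and megakaryocyte lists (8 and 7 genes) and heart markers (6) had no member called either. Promoters are RefSeq's; none was found for Hbb-bh1.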

Additional observations from a re-analysis of the deposited data

Results flagged for a closer look

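Within each group of 5 libraries, the 7 genes, the total and the 2 ratios were checked on the log2 scale. The values printed below are without logs. A library was flagged where its gap to the next exceeded Dixon's 95% limit (0.71 of the range of log2 values). Of 80 such checks 13 were past it, and chance gives about 1 in 20 for independent checks. The 80 are not independent, since the total and the ratios are made from the 7 genes, so the 2 rates cannot be compared.

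Of the 13, 8 concern the 2 low-albumin libraries. CD females replicate 4 was lowest of its group for Hba-a2 (128216, the others 555883 to 875948), Hbb-bs (139236, the others 545388 to 874758), Hbb-bt (28281, the others 172707 to 281796), Hba-x (24.4, the others 53.4 to 72.3) and Hbb-bh1 (2.37, the others 35.3 to 66.1). Its total of 333284 (the others 1429770 to 2258210) and its alpha ratio of 9374 (the others 18400 to 23892) were lowest too. CDF females replicate 5 was lowest for Hbb-y (23.3, the others 72.2 to 102).

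The other 5 concern 4 libraries. CD males replicate 4 was highest for Hba-x (192, the others 49.9 to 57.6), and WD males replicate 4 was lowest for Hbb-y (30.1, the others 69.1 to 85.7). WDF females replicate 2 was lowest for the beta ratio (3402, the others 8091 to 9315) and for the alpha ratio (9101, the others 16151 to 18653). WD males replicate 5 was lowest for the alpha ratio (10870, the others 25317 to 30926).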

How the results depend on the processing

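No total or ratio passed the threshold under any alternative, except that the alpha ratio of females against males did without WD males replicate 5 or CDF females replicate 4 (values above). Without the 2 low-albumin libraries the log2 difference turned for the total in WDF against CDF females (-0.41, against 0.22), pooled folic acid (0.0033, against -0.03) and females against males (0.10, against -0.18), and for the beta ratio in WD against CD females (-0.080, against 0.04) and CDF against CD females (-0.046, against 0.01). As a share of the library the total in WD against CD males turned to 0.0077 (against -0.04), and with a pseudocount of 5 the alpha ratio of CDF against CD females was 0.014 (against -2.5e-05). Leaving out 1 library at a time, the ranges of the comparisons that turned or changed call were as follows. For the total they were -0.22 to 0.25 for WD against CD males, -0.41 to 0.76 for WDF against CDF females, -0.32 to 0.15 for WDF against WD males and -0.16 to 0.13 for pooled folic acid. For the beta ratio they were -0.080 to 0.20 for WD against CD females, -0.30 to 0.13 for WDF against CDF females, -0.33 to 0.11 for WDF against WD females, -0.13 to 0.17 for CDF against CD females, -0.092 to 0.024 for pooled fat and -0.075 to 0.040 for pooled folic acid. For the alpha ratio they were -0.30 to 0.082 for WD against CD males, -0.31 to 0.12 for WDF against CDF males, -0.37 to 0.082 for WDF against CDF females, -0.31 to 0.15 for CDF against CD females, -0.13 to 0.0064 for pooled fat and -0.50 to -0.37 for females against males. The cause was not tested. The 3 genes called in the pooled fat comparison (Me1, Pltp and Lysmd2, no globins) became 7 without the 2 libraries, 6 with the replicate number as a block and 3 to 13 with 1 library left out (13 without CDF males replicate 2, 8 without CD males replicate 4, 7 without WD males replicate 4, 6 without CDF females replicate 2 and 5 without CDF or CD females replicate 1 or 3), and a fit to the compared groups only called 1 gene in WD against CD females. That last alternative could not differ for the pooled comparisons and was not run there. In no comparison did all same-numbered libraries deviate together (correlations of -0.53 to 0.65). In CDF against CD females, replicates 1, 2 and 3 had 0.65, 0.40 and 0.55. Replicates 4 and 5, each with a low-albumin library, had -0.40 and -0.079 there. A low-albumin library enters each of these group means, which moves the deviations of the other libraries the same way whatever their number. Those correlations therefore cannot show pairing. As no comparison had all its same-numbered libraries deviate together, the numbers were not taken as pairs, though this check cannot settle it. The replicate block left Hba-a1 in WD against CD females at 1.41 (limma adjusted p = 0.298) and changed no globin call. Hba-a1 there ran from 0.90 to 1.62 and Hbb-y in the pooled fat comparison from 0.36 to 0.53 with 1 library left out, and neither was called under any alternative (limma adjusted p from 0.195 to 0.866 and from 0.312 to 0.824). Hbb-bh1 at values near 2 and the unknown read depth limit what the embryonic genes can show.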
